A study of Oryza sativa with 7 samples.

Results

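Crown root primordia that had reached outgrowth were compared with ground tissue, the study's control, in the stem base of rice seedlings of the wild-type indica cultivar IR64, aged 6 days and grown on half-strength medium under long days. The comparison used 4 of the 7 libraries, chosen by their tissue labels: outgrowth replicates 1 and 2 and control replicates 1 and 2, so n = 2 in each group. The other 3 libraries, of primordia at initiation, entered the shared estimate of spread and are quoted where a gene also differed between the stages. All tissue was cut from sections by laser capture, and no group carried a transgene or received a treatment. Neither the plants behind each library nor the way in which the captured cells were recognised is given in the sources used here. The outgrowth files are laid out differently from the other files. A separate run of processing therefore cannot be told apart from any difference between outgrowth and control.

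Genes are described by name. The files give locus identifiers alone, in which the digits after Os are the chromosome, so names were attached by locus. Of 346 loci of known function collected in 25 lists, 268 had their name in the RefSeq table of another assembly (ASM3414082v1) on the same chromosome and at nearly the same relative place. Another 9 crown root regulators, whose names that table lacks, were named from their published loci. This gave 277 named loci, of which 249 had a read in some library and 217 were abundant enough to be tested.

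Crown roots are the shoot-borne roots of cereals, and they form from cells deep in the stem base that divide, organise into a dome with its own stem cells and push outward through the cortex. Auxin starts the process through the transcription factors CRL1 and CRL5, and WOX11 together with ERF3 promotes it, partly by controlling cytokinin response regulators. In the forming root, SHR and SCR pattern the ground tissue, QHB marks the quiescent centre, and AP2 factors of the PLETHORA and BABY BOOM class keep the meristem dividing, as known best from Arabidopsis. The shoot uses other regulators for its own meristem and leaves, among them KNOX and class III HD-ZIP homeobox proteins.

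Each library held between 8351775 counts (control replicate 1) and 25448025 counts (control replicate 2), with 12517569 and 11337620 at outgrowth. Levels are in CPM, the counts a gene would have in a library of 1000000 counts, with no correction for gene length. Of 18830 genes tested with edgeR's quasi-likelihood test, 2413 (12.8%) were higher and 2563 (13.6%) lower at outgrowth at a Benjamini-Hochberg adjusted p below 0.05. The median log2 fold change was -0.02 over all tested genes, and these percentages and that median are the background for every count of list members below. Without outgrowth replicate 1 the counts were 844 and 908, without outgrowth replicate 2 they were 736 and 787, and without control replicate 2 they were 4492 and 3098. Of the 217 list members tested, 40 were higher and 77 lower. Testing needed 1 CPM in 2 libraries, so a gene passing only through the control libraries could not come out higher. The reverse holds for genes passing only through outgrowth. At least WOX4, FON1, IAA14, LHCB2, PORA, HMA2, NAS1, NAS2, PIP2;2 and TIP2;1 passed only through control, and at least RR5 only through outgrowth. The direction of all these genes was set by the filter and adds no weight to a list count. Where 0 members of a list or family are given as called in a direction by the fit of all libraries, 0 passed an unadjusted p of 0.05 either and DESeq2 called 0, except that 1 clock gene was called higher by DESeq2 and passed the unadjusted p. The 4 list medians given below did not change when a fold against a group at 0 was replaced by its lower bound. All 117 called list members had groups that did not overlap, so such separation adds nothing to a call. Of the 217 tested, called or not, 65 lay above and 108 below control in both outgrowth libraries. The share over all genes was not counted, so these counts are not a result about the members. The control pair differed from each other by 52.5 times the binomial counting noise and the outgrowth pair by 9.53 times, so control values are the less even ones. Genes commonly used as references moved as well: EF1A, a translation elongation factor, rose by 1.06 ± 0.17 on the log2 scale (SE, edgeR's adjusted p = 0.00393), and ACT1, GAPDH and TUBA1 were lower, with log2 fold changes of -0.77, -0.96 and -0.96. Of these 3 calls, 0 remained without outgrowth replicate 1 and 1, that of GAPDH, without replicate 2. ACT1 was also lost without control replicate 1, without initiation replicate 2 and with only the outgrowth and control libraries fitted (edgeR's adjusted p up to 0.214).

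The crown root regulators divided into those gained and those lost at outgrowth: of 16 tested, 6 were higher and 5 lower than in control. All 4 BABY BOOM genes and both SCR genes were the 6 that were higher. CRL5, WOX11, SHR1, SHR2 and RR2 were the 5 that were lower. CRL1, ERF3, QHB, RR1 and DRO1 did not pass the test, and CRL6, a chromatin remodeller, had no read in any library.

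BBM2 (LOC_Os02g40070) was the most abundant regulator at outgrowth, with 395 and 339.5 CPM in replicates 1 and 2 and no read in either control library. Taking 3 counts over both control libraries as the limit of detection, it was at least 4263-fold higher, a bound that covers counting error alone (edgeR's adjusted p = 4.48e-05). BBM3 (LOC_Os01g67410) had 81.0 and 77.3 CPM at outgrowth and 0.347 and 1.03 CPM in control, a log2 fold change of 6.59 ± 0.36 (SE, edgeR's adjusted p = 9.52e-05). The groups lay far apart, and the few control reads were 30 in all. BBM1 (LOC_Os11g19060), which can trigger embryo development from an egg cell in rice, had 46.8 and 43.8 CPM at outgrowth and 1.5 and 0.421 CPM in control, a log2 fold change of 5.80 ± 0.54 (SE, edgeR's adjusted p = 0.000453). BBM4 (LOC_Os04g42570) had 89.0 and 75.6 CPM against 8.33 and 4.74 CPM, a log2 fold change of 3.70 ± 0.31 (SE, edgeR's adjusted p = 0.00031). Its control level was thus the highest of the family. No control library reached an outgrowth library, which holds for every list member called higher. None of the 4 differed between outgrowth and initiation by the test (edgeR's adjusted p from 0.0836 for BBM3 to 0.965 for BBM2). All 4 kept their calls with any single library left out. The sizes leaned on the control libraries: without control replicate 2 the log2 fold change was 7.83 for BBM3 and 4.94 for BBM1, and without control replicate 1 it was 6.70 for BBM1.

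**Figure D1:**
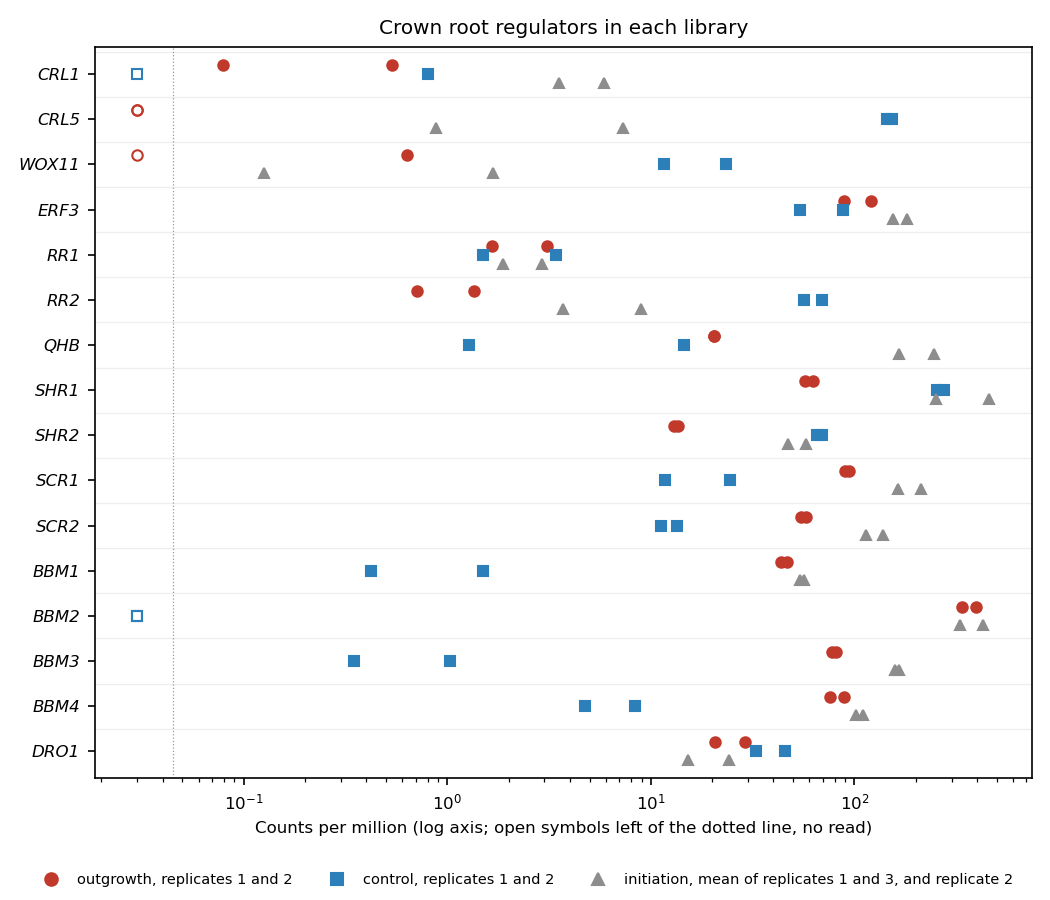
CPM of 16 crown root regulators in each library, on a log axis. Circles are the outgrowth libraries, squares the control libraries and triangles the initiation samples, and open symbols left of the dotted line are libraries without a read. The BBM genes stand high at both primordium stages and low in control, whereas CRL5, WOX11 and RR2 stand high in control.

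SCR1 and SCR2 encode GRAS transcription factors that specify the endodermis and the stem cell niche. SCR1 (LOC_Os11g03110) had 94.3 and 89.9 CPM at outgrowth and 11.7 and 24.4 CPM in control, a log2 fold change of 2.33 ± 0.34 (SE, edgeR's adjusted p = 0.00264). Without control replicate 2 it was 3.02. SCR2 (LOC_Os12g02870) had 54.4 and 57.8 CPM against 11.2 and 13.5 CPM, a log2 fold change of 2.17 ± 0.23 (SE, edgeR's adjusted p = 0.000702). Each gene was higher in both outgrowth libraries than in either control library. They lie in the duplicated ends of chromosomes 11 and 12 and are closely similar, so reads may have been divided between them.

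SHR proteins are the GRAS factors that move from the stele into neighbouring cells, where they act with SCR, and in these libraries both SHR genes were lower at outgrowth. SHR1 (LOC_Os07g39820) had 62.5 and 57.1 CPM at outgrowth and 256 and 275 CPM in control, a log2 fold change of -2.15 ± 0.29 (SE, edgeR's adjusted p = 0.00192). SHR2 (LOC_Os03g31880) had 13.6 and 13.0 CPM against 65.8 and 69.6 CPM, a log2 fold change of -2.35 ± 0.25 (SE, edgeR's adjusted p = 0.000715). Both were also below initiation, where SHR1 had 250.2 CPM in the mean of replicates 1 and 3 and 460.3 CPM in replicate 2, and SHR2 had 47.1 and 57.8 CPM. Between the stages, 580 of all tested genes (3.08%) were called. SHR1 fell by 2.57 and SHR2 by 1.98 from initiation to outgrowth on the log2 scale (edgeR's adjusted p = 0.00881 and 0.011).

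Among the genes of crown root initiation, CRL5 (LOC_Os07g03250) had no read at outgrowth and 145 and 152 CPM in control. Its level in control was therefore at least 1184-fold above that at outgrowth, against 3 counts over the outgrowth group (edgeR's adjusted p = 0.00164). The initiation samples had 0.878 and 7.32 CPM, so this AP2 factor stood far above both primordium stages in the control libraries. WOX11 (LOC_Os07g48560) had 0.635 CPM and no read in outgrowth replicates 1 and 2 and 11.6 and 23.5 CPM in control, a log2 fold change of -5.72 ± 1.48 (SE, edgeR's adjusted p = 0.0262). That call was lost without outgrowth replicate 2 (log2 fold change -4.76, edgeR's adjusted p = 0.138), and without outgrowth replicate 1 or control replicate 2 the fitted values were -11.07 and -5.07. RR2 (LOC_Os02g35180), a type-A cytokinin response regulator under WOX11 and ERF3, had 1.35 and 0.710 CPM at outgrowth and 69.2 and 56.7 CPM in control, a log2 fold change of -5.91 ± 0.59 (SE, edgeR's adjusted p = 0.000585). RR1 (LOC_Os04g36070), the response regulator downstream of CRL5, had 1.67 and 3.11 CPM at outgrowth and 1.5 and 3.40 CPM in control, and these ranges overlapped (edgeR's adjusted p = 0.968). ERF3 (LOC_Os01g58420) had 120.1 and 88.5 CPM at outgrowth against 87.7 and 54.3 CPM in control (edgeR's adjusted p = 0.17). Its outgrowth libraries were both above its control libraries, by less than the spread the test allows for.

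CRL1 (LOC_Os03g05510), the LBD factor without which rice forms no crown roots, had 0.0794 and 0.532 CPM at outgrowth and 0 and 0.803 CPM in control. These are 7 and 21 reads over the groups, and no difference was detectable at this depth (edgeR's adjusted p = 0.801). At initiation it had 5.89 and 3.56 CPM, and the stages were not told apart (edgeR's adjusted p = 0.23). QHB (LOC_Os01g63510) had 20.5 and 20.3 CPM at outgrowth and 1.27 and 14.6 CPM in control (log2 fold change 1.26 ± 0.74, SE, edgeR's adjusted p = 0.247). The uneven control pair left this unresolved, although both outgrowth values lay above it. Initiation had 165 and 247 CPM of this quiescent centre gene (edgeR's adjusted p = 0.0647 between the stages). DRO1 (LOC_Os09g26840), which sets the growth angle of roots, had 29.0 and 20.7 CPM at outgrowth and 45.6 and 32.8 CPM in control (edgeR's adjusted p = 0.213).

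The crown root markers did not all follow the tissue labels. Summed over CRL1, CRL5, WOX11, QHB, SHR1 and SCR1, crown root primordium markers came to 178 and 168 CPM at outgrowth, 425 and 490.1 CPM in control, and 633 and 885 CPM at initiation. SHR1 and CRL5 carried the control sum, while SCR1 and QHB were lower in both control libraries than at outgrowth. These 6 do not include BBM1 to BBM4 and SCR2, which summed to 667 and 594 CPM at outgrowth and to 21.4 and 19.7 CPM in control. Over all 17 crown root regulators the sums were 1010.4 and 888 CPM at outgrowth, 717 and 727 CPM in control, and 1778 and 1891 CPM at initiation, so the direction of a summed level depended on which markers entered it. Of the first 6 markers, CRL5 was at 0 in both outgrowth libraries and WOX11 in replicate 2, while control replicate 1 lacked only CRL1. Outside these 6, BBM2 had no read in either control library and CRL6 none in any library. Ground tissue itself was looked for only through markers of the endodermis, its innermost layer in roots. Markers of the shoot meristem and of leaf and green tissue were also read in control. Whether the control held ground tissue alone was not tested. The control libraries carried 671 and 777 CPM of the shoot meristem markers OSH1, OSH15 and FON1, against 117 and 110.0 CPM at outgrowth. Leaf and green tissue markers (CAB1R, CAB2R, RCA, RBCS-a and RBCS-c) summed to 230 and 633 CPM in control and to 4.68 and 3.64 CPM at outgrowth. Of the markers of root hairs and endodermis, EXPA17 and LSI2 had no read in any library, and LSI1 reached at most 0.794 CPM, in outgrowth replicate 1. CASP1 (LOC_Os04g58760), a protein of the Casparian strip of the endodermis, had no read at outgrowth or initiation and 5.20 and 4.74 CPM in control. It was at least 39.6-fold lower at outgrowth (edgeR's adjusted p = 0.0145), and this call was lost with either outgrowth library left out. CASP1 passed the filter only through the control libraries, so it could not have come out higher. With either control library left out it was not tested. The part of these other cell types in the differences below was not tested. In captured tissue, fewer cells of a type and less RNA per cell cannot be told apart.

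Of the shoot meristem and leaf regulators, 10 of 11 tested were lower at outgrowth and 0 higher, with a median log2 fold change of -3.41. Of these, at least WOX4 and FON1 passed the filter only through the control libraries and could not have come out higher. OSH1 (LOC_Os03g51690), the KNOX protein that maintains the shoot meristem, had 14.9 and 13.1 CPM at outgrowth and 401 and 417 CPM in control. Its log2 fold change was -4.86 ± 0.20 (SE, edgeR's adjusted p = 4.22e-05). Initiation lay between, at 73.4 and 71.0 CPM, and from there OSH1 fell by 2.36 on the log2 scale (edgeR's adjusted p = 0.00523). Of the 4 KNOX genes tested 3 were lower, and the exception was OSH71 (LOC_Os05g03884), with 129.9 and 124 CPM at outgrowth and 93.7 and 123 CPM in control (edgeR's adjusted p = 0.447).

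WOX4 (LOC_Os04g55590), a homeobox gene of the shoot meristem and vascular cells, had no read at outgrowth and 79.4 and 105 CPM in control, at least 735-fold lower at outgrowth (edgeR's adjusted p = 0.00014). FON1 (LOC_Os06g50340), a receptor kinase that limits the size of floral and shoot meristems, had a single read at outgrowth and 11.2 and 3.02 CPM in control. The ratio of pooled counts was 121, its 95% counting interval running from 21.4 to 4795 (edgeR's adjusted p = 0.0169). That call was lost without outgrowth replicate 1 or 2 (edgeR's adjusted p = 0.0907 and 0.146), and with a control library left out too few libraries passed the filter for a test.

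All 5 class III HD-ZIP genes, which specify the upper side of leaves and pattern vascular tissue, were lower at outgrowth. HB4 (LOC_Os03g43930) had 40.3 and 36.4 CPM at outgrowth and 587 CPM in each control library, a log2 fold change of -3.94 ± 0.35 (SE, edgeR's adjusted p = 0.000386). HB3 (LOC_Os12g41860) had 95.2 and 82.1 CPM against 840.4 and 556 CPM, and HB1 (LOC_Os03g01890) had 24.5 and 27.6 CPM against 275 and 289.95 CPM, with log2 fold changes of -2.98 and -3.44. The least abundant, HB5 (LOC_Os01g10320), had 0.952 and 1.69 CPM against 11.2 and 8.64 CPM (log2 fold change -2.91, edgeR's adjusted p = 0.0215). No library of one group reached the other for any of these genes, which holds for every called list member. From initiation to outgrowth HB4 fell by 1.66 and HB1 fell by 1.56 on the log2 scale (edgeR's adjusted p = 0.0393 and 0.0172). With any single outgrowth or control library left out, 8 genes of the shoot meristem and leaf list were called lower.

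**Figure D2:**
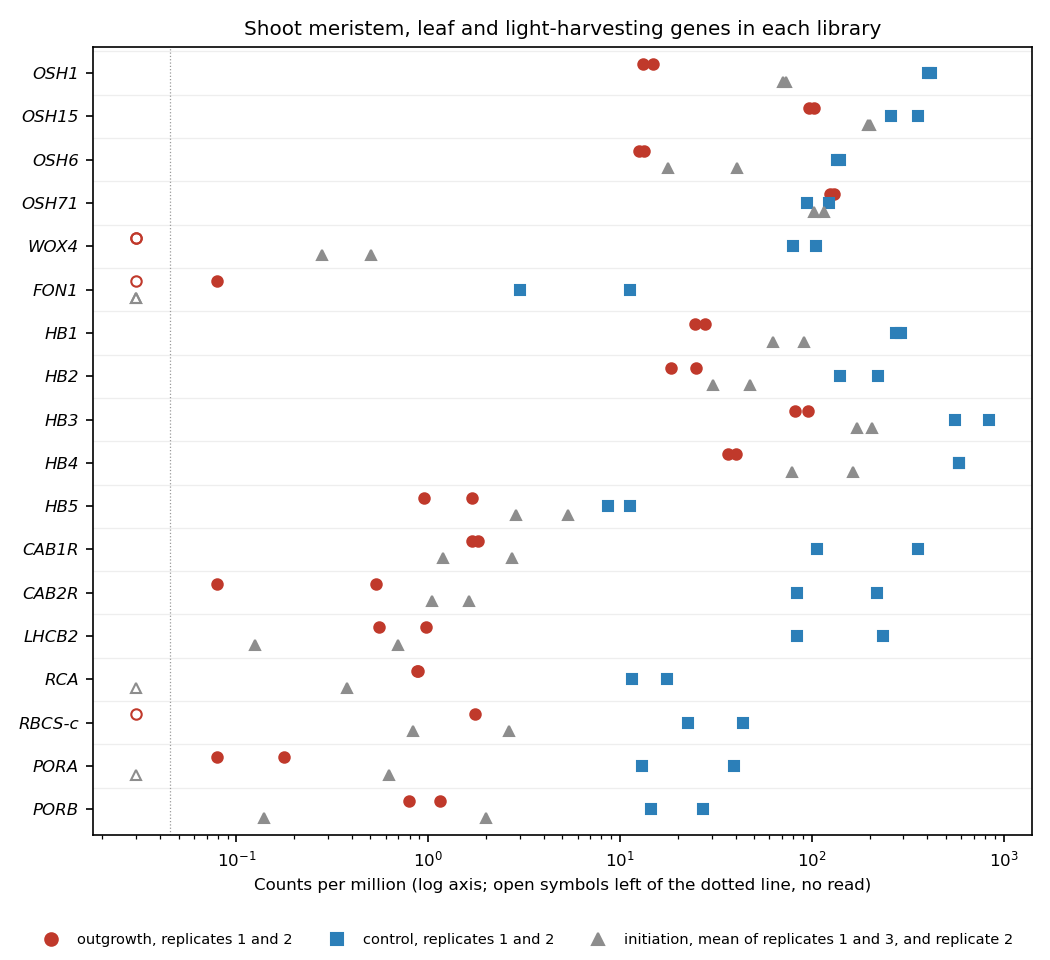
CPM of tested shoot meristem, leaf and light-harvesting genes in each library, on a log axis. Symbols are as in the plot of crown root regulators, with open symbols for libraries without a read. Every gene shown except OSH71 lies lower in both outgrowth libraries than in either control library, and the initiation samples of the KNOX and HD-ZIP genes lie mostly between.

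Genes of light harvesting and photosynthesis gave 7 lower of 7 tested, with a median log2 fold change of -7.04. Of these, at least LHCB2 and PORA passed the filter only through the control libraries and could not have come out higher. CAB1R (LOC_Os09g17740), a chlorophyll a/b-binding protein, had 1.83 and 1.69 CPM at outgrowth and 106 and 357 CPM in control (log2 fold change -7.04 ± 0.71, SE, edgeR's adjusted p = 0.000638). CAB2R (LOC_Os01g41710) had 0.0794 and 0.532 CPM against 83.3 and 217 CPM, a log2 fold change of -8.95 ± 0.78 (SE, edgeR's adjusted p = 0.000339). LHCB2 (LOC_Os03g39610) had 0.556 and 0.976 CPM against 84.0 and 234 CPM, a log2 fold change of -7.70 ± 0.75 (SE, edgeR's adjusted p = 0.000543). In each of these genes control replicate 2 was the higher control library. PORA (LOC_Os04g58200), which makes chlorophyllide in the light, had 3 reads at outgrowth and 13.1 and 39.3 CPM in control, a pooled ratio of 261 (95% counting interval from 89.0 to 1267). Initiation was low too, with 1.19 and 2.72 CPM of CAB1R. With 1 outgrowth library left out, 4 of the list were called lower, and PORA was among those lost without an outgrowth library (edgeR's adjusted p = 0.0627 and 0.0569). Without a control library, where LHCB2 and PORA no longer passed the filter, the count was also 4. The sizes followed the control library kept: CAB1R had a log2 fold change of -7.68 without control replicate 1, against -5.87 without control replicate 2, while CAB2R had -8.05 without the latter. For CAB2R the outgrowth libraries mattered too, with -8.11 without replicate 1 and -10.74 without replicate 2.

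Of 13 genes of auxin synthesis, inactivation and perception tested, 3 were higher and 3 lower. GH3 enzymes inactivate auxin by joining it to amino acids, and 2 of the 3 GH3 genes tested were higher. GH3-8 (LOC_Os07g40290) had 33.6 and 26.6 CPM at outgrowth and 0.578 and 0.688 CPM in control, a log2 fold change of 5.51 ± 0.44 (SE, edgeR's adjusted p = 0.000242). Its level at initiation was far higher, at 338 and 653 CPM, and it fell by 4.04 on the log2 scale from there to outgrowth (edgeR's adjusted p = 0.00523). GH3-2 (LOC_Os01g55940) had 14.2 and 13.3 CPM at outgrowth and 3 reads in control, a pooled ratio of 159.9 whose 95% counting interval ran from 54.2 to 779 (edgeR's adjusted p = 0.00143). Its fitted log2 fold change of 7.26 was 10.44 without control replicate 2, the only control library with a read of it. YUC1 (LOC_Os01g45760), an enzyme of auxin synthesis, was gained at a low level, with 5.32 and 4.52 CPM against 3 reads in control (edgeR's adjusted p = 0.00212).

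Of 6 auxin transport genes tested, 1 was higher and 2 lower. PIN2 (LOC_Os06g44970), the carrier of the root tip that moves auxin away from the apex, had 36.2 and 35.8 CPM at outgrowth and 8.79 and 2.03 CPM in control, a log2 fold change of 2.78 ± 0.72 (SE, edgeR's adjusted p = 0.026). The call was lost without outgrowth replicate 1 or 2 (edgeR's adjusted p = 0.118 and 0.126), and the log2 fold change was 4.12 without control replicate 1 and 2.07 without control replicate 2. PIN1c (LOC_Os11g04190) had 26.0 and 28.0 CPM against 58.4 and 78.7 CPM, a log2 fold change of -1.35 ± 0.26 (SE, edgeR's adjusted p = 0.00838), and from initiation it fell by 2.70 on the log2 scale (edgeR's adjusted p = 0.00719). Like SCR1, PIN1c lies in the duplicated end of chromosome 11, so its reads may have been divided with a copy on chromosome 12. Its call against control was lost with either outgrowth library left out (edgeR's adjusted p up to 0.0793). PIN1b (LOC_Os02g50960), the most abundant carrier, had 217 and 171 CPM at outgrowth and 263 and 382 CPM in control and did not pass the test (edgeR's adjusted p = 0.12). LAZY1 (LOC_Os11g29840), which steers shoot gravitropism and tiller angle, had 1.83 and 0.976 CPM against 39.3 and 59.4 CPM, a log2 fold change of -5.12 ± 0.53 (SE, edgeR's adjusted p = 0.000699). Its control libraries were both far above the outgrowth pair.

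Auxin response factors, which bind auxin-responsive promoters, gave 3 lower and 0 higher of 7 tested. ARF17 (LOC_Os06g46410) had 70.2 and 72.8 CPM at outgrowth and 451 and 377 CPM in control, a log2 fold change of -2.53 ± 0.20 (SE, edgeR's adjusted p = 0.00022). ARF12 (LOC_Os04g57610) had 41.0 and 44.9 CPM against 243 and 232 CPM, a log2 fold change of -2.47 ± 0.25 (SE, edgeR's adjusted p = 0.000653), and from initiation it fell by 1.66 on the log2 scale (edgeR's adjusted p = 0.0189). ARF1 (LOC_Os01g13520) had 17.6 and 12.4 CPM against 93.4 and 65.1 CPM (log2 fold change -2.40 ± 0.46, SE, edgeR's adjusted p = 0.00862), a call lost without outgrowth replicate 2 (edgeR's adjusted p = 0.0869). ARF25 and ARF4, both above 100 CPM in every library, were near equal in the groups, with log2 fold changes of 0.15 and -0.07.

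The Aux/IAA proteins hold response factors in check until auxin has them degraded, and 8 of 22 tested genes were lower and 2 higher. IAA17 (LOC_Os05g14180), the most abundant of them in control, had 215 and 238 CPM at outgrowth and 1747 and 1392 CPM in control, a log2 fold change of -2.79 ± 0.19 (SE, edgeR's adjusted p = 0.000151). IAA21 (LOC_Os06g22870) had 44.5 and 41.9 CPM against 588 and 526 CPM, a log2 fold change of -3.69 ± 0.19 (SE, edgeR's adjusted p = 8.47e-05). IAA14 (LOC_Os03g58350) was close to absent at outgrowth, with 0.317 and 0.177 CPM against 22.4 and 24.2 CPM (log2 fold change -6.50 ± 0.72, SE, edgeR's adjusted p = 0.00143). In each of these 3 genes both control libraries stood well above the outgrowth pair. IAA30 (LOC_Os12g40890) had 110.2 and 101 CPM against 743 and 650.4 CPM, a log2 fold change of -2.72 ± 0.18 (SE, edgeR's adjusted p = 0.00014). Its neighbour IAA31 (LOC_Os12g40900) had 451 and 399 CPM at outgrowth and 716 and 516 CPM in control and was not called (edgeR's adjusted p = 0.108), and reads may have been divided between the pair. IAA20 (LOC_Os06g07040) went the other way, with 7.46 and 11 CPM at outgrowth and 0 and 0.344 CPM in control (log2 fold change 5.31 ± 0.90, SE, edgeR's adjusted p = 0.00506). With only 9 control reads, its fitted log2 fold change was 4.69 without control replicate 1 and 9.86 without control replicate 2. Both outgrowth values of IAA20 were above both control values, as for every list member called higher. IAA7 (LOC_Os02g13520) had 102 and 103 CPM against 43.4 and 54.4 CPM (log2 fold change 1.06 ± 0.19, SE, edgeR's adjusted p = 0.00628) and fell by 1.55 from initiation (edgeR's adjusted p = 0.011). The call of IAA7 against control was lost with either outgrowth library left out (edgeR's adjusted p up to 0.0593).

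**Figure D3:**
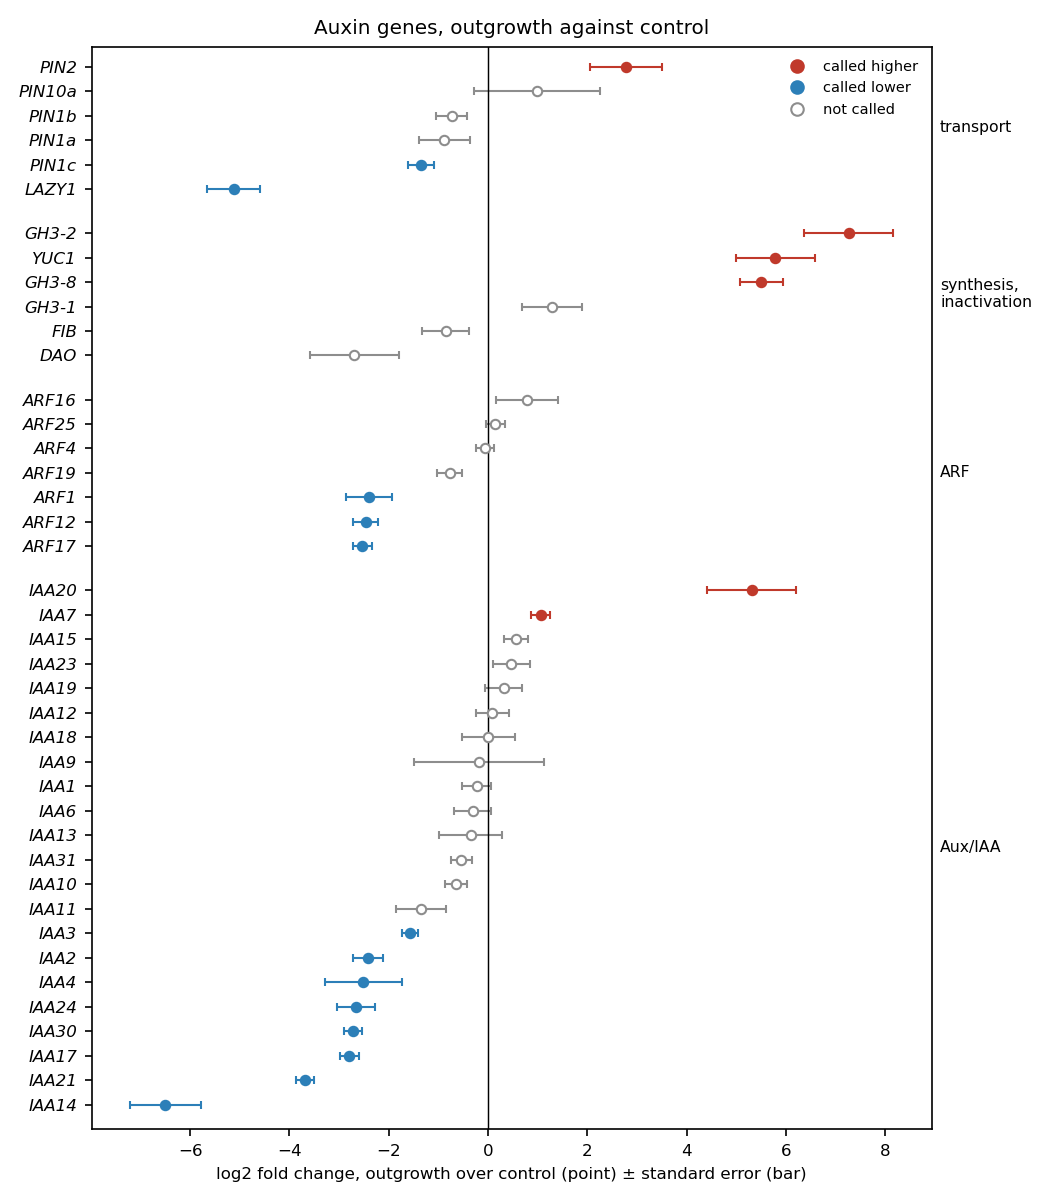
Log2 fold change at outgrowth over control (points) with its standard error (bars) for the tested genes of auxin transport, synthesis and inactivation, auxin response factors and Aux/IAA repressors. Filled points passed the edgeR test. GH3-2, GH3-8 and YUC1 lie to the right, ARF1, ARF12, ARF17 and 8 Aux/IAA genes to the left.

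Among 10 cytokinin genes tested, 2 were lower and 1 higher. The higher one was RR5 (LOC_Os04g44280), with 1.27 and 1.42 CPM at outgrowth, no read in control and at most 0.0627 CPM at initiation. It passed the filter only through the outgrowth libraries, so it could not have come out lower. DESeq2, and edgeR blocked by replicate number on the outgrowth and control libraries, each called 0 cytokinin genes higher. RR9 (LOC_Os11g04720) and RR10 (LOC_Os12g04500), a nearly identical pair of type-A response regulators between which reads may be divided, had 5.40 and 4.88 CPM and 5.40 and 4.61 CPM at outgrowth. In control they had 36.9 and 20.2 CPM and 20.4 and 16.6 CPM, with log2 fold changes of -2.47 ± 0.60 and -1.88 ± 0.51 (SE, edgeR's adjusted p = 0.0215 and 0.0318). Both calls were lost without outgrowth replicate 1 or 2 (edgeR's adjusted p up to 0.249). Of 4 gibberellin genes tested, 0 were higher and 2 lower, SLR1 (LOC_Os03g49990), the DELLA repressor of growth and GID2, the F-box protein that removes it. SLR1 had 71.1 and 68.4 CPM against 207 and 284 CPM, a log2 fold change of -1.82 ± 0.29 (SE, edgeR's adjusted p = 0.00383). GID2 (LOC_Os02g36974) had 346 and 398 CPM against 785 and 705 CPM (log2 fold change -1.0, edgeR's adjusted p = 0.00498), a call lost without outgrowth replicate 1 (edgeR's adjusted p = 0.0625).

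Of 7 brassinosteroid and strigolactone genes tested, 2 were higher and 3 lower, with 1 and 1 left without outgrowth replicate 1 and 1 and 0 without replicate 2. BRD1 (LOC_Os03g40540), a late enzyme of synthesis, had 21.3 and 20.4 CPM at outgrowth and 1.73 and 4.36 CPM in control, a log2 fold change of 2.71 ± 0.43 (SE, edgeR's adjusted p = 0.00392) that was 3.62 without control replicate 2. The receptor BRI1 (LOC_Os01g52050) had 234 and 217 CPM against 138 and 125 CPM (log2 fold change 0.78 ± 0.17, SE, edgeR's adjusted p = 0.013). BZR1 (LOC_Os07g39220), the transcription factor at the end of that pathway, had 49.3 and 53.6 CPM against 91.0 and 104 CPM (log2 fold change -0.92 ± 0.21, SE, edgeR's adjusted p = 0.0154). The calls of BRI1 and BZR1 were lost with either outgrowth library left out (edgeR's adjusted p up to 0.122 and 0.161). D11 (LOC_Os04g39430), a cytochrome P450 of brassinosteroid synthesis, had 27.4 and 23.6 CPM against 72.4 and 42.1 CPM (log2 fold change -1.16 ± 0.33, SE, edgeR's adjusted p = 0.0356). That call was lost with either outgrowth library left out, without control replicate 1, without initiation replicate 2 and with only the outgrowth and control libraries fitted (edgeR's adjusted p up to 0.249). D14 (LOC_Os03g10620), the strigolactone receptor, had 24.7 and 18.7 CPM against 69.3 and 80.0 CPM (log2 fold change -1.78 ± 0.27, SE, edgeR's adjusted p = 0.00319), and its call was lost without outgrowth replicate 2 (edgeR's adjusted p = 0.06). Of 7 ethylene and abscisic acid genes tested, 1 was higher and 1 lower. SALT (LOC_Os01g24710), a lectin induced by salt and abscisic acid, had 27.5 and 9.76 CPM at outgrowth and 0 and 1.45 CPM in control (log2 fold change 4.40 ± 1.08, SE, edgeR's adjusted p = 0.0215). It was 3.54 without outgrowth replicate 1, where the call was lost (edgeR's adjusted p = 0.124), as it was with only the outgrowth and control libraries fitted. It was 5.01 without outgrowth replicate 2, and 3.65 and 10.87 when control replicate 1 or 2 was left out. The ethylene receptor ERS1 (LOC_Os03g49500) had 75.2 and 78.6 CPM against 115 and 139 CPM (log2 fold change -0.73 ± 0.19, SE, edgeR's adjusted p = 0.0262), a call lost with either outgrowth library left out and with upper quartile scaling (edgeR's adjusted p up to 0.213).

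Among the hormone genes that did not pass the test, the auxin exporter PIN1a had a log2 fold change of -0.88 and the Aux/IAA gene IAA10 of -0.64. The type-A response regulators RR4 and RR6 had 0.63 and -0.71. SD1, a gibberellin synthesis enzyme, had -0.62 and the gibberellin receptor GID1 -0.19. For D2, another P450 of brassinosteroid synthesis, the log2 fold change was 0.69, and for D3, the F-box protein of strigolactone signalling, -1.05. The ethylene receptors ETR2 and ETR3 had -0.31 and 0.29.

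Of the genes of DNA replication, 8 of 8 tested were higher at outgrowth than in control, and their median log2 fold change was 1.20. Each had a mean at initiation above that at outgrowth, with 1039 and 1314 CPM of PCNA there. Of these genes, 0 were called between the stages. The MCM proteins form the ring-shaped helicase that opens DNA for replication, and all 6 of their genes were higher. MCM4 (LOC_Os01g36390) had 246 and 270.2 CPM at outgrowth and 102 and 103 CPM in control, a log2 fold change of 1.33 ± 0.16 (SE, edgeR's adjusted p = 0.00139). MCM6 (LOC_Os05g14590) had 188 and 189 CPM against 65.6 and 82.0 CPM, a log2 fold change of 1.35 ± 0.18 (SE, edgeR's adjusted p = 0.00207). The smallest difference was that of MCM5 (LOC_Os02g55410), with 203 and 223 CPM against 131 and 148 CPM (log2 fold change 0.61 ± 0.17, SE, edgeR's adjusted p = 0.0329). PCNA (LOC_Os02g56130), the sliding clamp, had 614 and 786 CPM against 219 and 352 CPM (log2 fold change 1.29 ± 0.27, SE, edgeR's adjusted p = 0.0112). ORC1 (LOC_Os06g08790), part of the complex that marks origins, had 67.6 and 97.6 CPM against 40.0 and 32.0 CPM (log2 fold change 1.20 ± 0.24, SE, edgeR's adjusted p = 0.0107). In each gene the outgrowth libraries lay above both control libraries, as for every list member called higher. Without outgrowth replicate 1 the count called was 7 and without replicate 2 it was 4, PCNA and ORC1 being lost without the latter (edgeR's adjusted p = 0.078 and 0.12).

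Of 13 genes of mitosis tested, 2 were higher and 1 lower, shares near those of all genes. Of 6 A- and B-type cyclins tested, edgeR called 1 higher, CYCA3;2, while 2 were called higher by DESeq2 and 2 passed an unadjusted p of 0.05. The mitosis list had 5 genes called higher without control replicate 2 and 0 with either outgrowth library left out. Of 4 cyclin-dependent kinases 0 were called by edgeR or DESeq2, or passed an unadjusted p of 0.05. CDKB2 (LOC_Os08g40170), the kinase of dividing cells, had 125 and 201 CPM at outgrowth and 157 and 161 CPM in control, so its outgrowth pair enclosed the control pair. CDKA1 (LOC_Os03g02680) had 163 and 171 CPM against 104 and 127 CPM (edgeR's adjusted p = 0.152). CYCA3;2 (LOC_Os12g39210) had 28.7 and 45.2 CPM against 15.6 and 18.2 CPM (log2 fold change 1.13 ± 0.30, SE, edgeR's adjusted p = 0.0305). This call was lost with either outgrowth library left out, without control replicate 1, without initiation replicate 2 and with only the outgrowth and control libraries fitted, blocked by replicate number or not (edgeR's adjusted p up to 0.315).

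KRP1 (LOC_Os02g52480), an inhibitor of cyclin-dependent kinases, was lower, with 12.0 and 12.9 CPM at outgrowth and 79.8 and 77.0 CPM in control. Its log2 fold change was -2.66 ± 0.26 (SE, edgeR's adjusted p = 0.000587). RBR1 (LOC_Os08g42600), the retinoblastoma-related protein that holds back entry into S phase, was higher, with 107 and 105 CPM against 26.3 and 50.0 CPM (log2 fold change 1.46 ± 0.30, SE, edgeR's adjusted p = 0.0108). It was 2.05 without control replicate 2, and the call was lost with either outgrowth library left out (edgeR's adjusted p = 0.0616 and 0.0647).

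**Figure D4:**
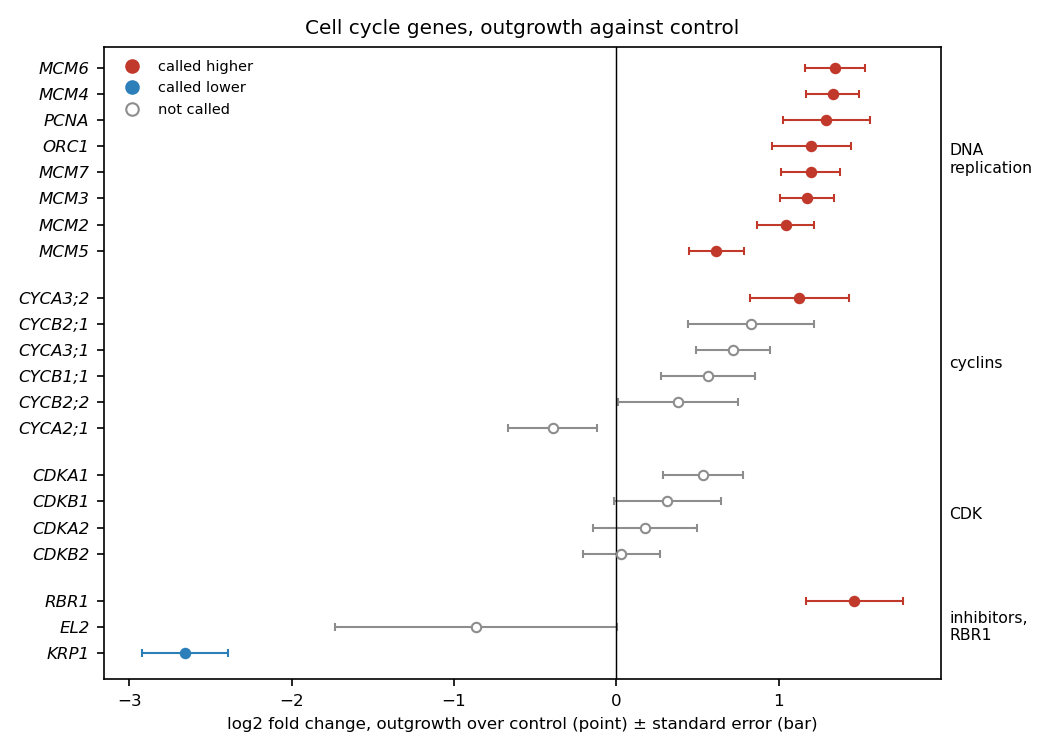
Log2 fold change at outgrowth over control (points) with its standard error (bars) for tested cell cycle genes. The 8 DNA replication genes lie between 0.61 and 1.35 and all passed the edgeR test (filled points), while most cyclins and all 4 cyclin-dependent kinases did not (open points).

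Growth-regulating factors, transcription factors that sustain cell division in young organs and are held in check by miR396, gave 3 higher and 2 lower of 10 tested. GRF6 (LOC_Os03g51970) had 236 and 243 CPM at outgrowth and 24.1 and 19.2 CPM in control, a log2 fold change of 3.48 ± 0.41 (SE, edgeR's adjusted p = 0.00113). GRF12 (LOC_Os04g48510) had 7.38 and 9.14 CPM at outgrowth, while both control libraries lacked it, and was at least 95.8-fold higher (edgeR's adjusted p = 0.00105). GRF10 (LOC_Os02g45570) had 36.9 and 34.0 CPM against 0 and 0.612 CPM (edgeR's adjusted p = 0.00508), and its fitted log2 fold change of 6.46 was 5.81 without control replicate 1 and 11.80 without control replicate 2. GRF10 and GRF12 were thus at or near 0 in control, and GRF6 was not. GRF3 (LOC_Os04g51190) and GRF4 (LOC_Os02g47280) had no read at outgrowth. In control GRF3 had 15 and 17.7 CPM and GRF4 16.3 and 8.60 CPM, so they were at least 130.2-fold and 99.1-fold lower at outgrowth (edgeR's adjusted p = 0.00749 and 0.0216). The call of GRF4 was lost with either outgrowth library left out (edgeR's adjusted p up to 0.103). GRF11 (LOC_Os07g28430) was level, with 99.4 and 99.3 CPM against 99.6 and 92.3 CPM, and the groups overlapped. The 3 calls of higher genes held with any single outgrowth or control library left out.

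Argonaute proteins carry small RNAs, and 2 of their 8 tested genes were higher and 1 lower. AGO4A (LOC_Os01g16870), of the clade that directs DNA methylation, had 556 and 518 CPM at outgrowth and 268 and 275 CPM in control, a log2 fold change of 0.98 ± 0.16 (SE, edgeR's adjusted p = 0.00402). AGO4B (LOC_Os04g06770) had 458 and 451 CPM against 319 and 299.6 CPM (log2 fold change 0.56 ± 0.16, SE, edgeR's adjusted p = 0.035), a call lost with either outgrowth library left out, without control replicate 1 and with the replicate block (edgeR's adjusted p up to 0.193). PNH1 (LOC_Os06g39640), the argonaute of vascular strands and shoot meristems, was lower, with 67.8 and 67.3 CPM against 405 and 358 CPM. Its log2 fold change was -2.50 ± 0.23 (SE, edgeR's adjusted p = 0.000461), and from initiation it fell by 1.76 (edgeR's adjusted p = 0.0128). AGO1A and AGO1B, of the clade that acts with microRNAs, did not pass the test, with log2 fold changes of -0.51 and -0.47 (edgeR's adjusted p = 0.0578 and 0.114). In the whole list of 13 chromatin and small RNA genes tested, 2 were higher and 1 lower.

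Of 6 cellulose synthase genes of the primary wall, 5 were lower at outgrowth and 0 higher. CESA6 (LOC_Os07g14850) had 30.9 and 28.6 CPM at outgrowth and 158 and 89.5 CPM in control, a log2 fold change of -2.05 ± 0.31 (SE, edgeR's adjusted p = 0.00319). CESA1 (LOC_Os05g08370) had 103 and 113 CPM against 336 and 267 CPM, a log2 fold change of -1.48 ± 0.19 (SE, edgeR's adjusted p = 0.00154), and CESA8 (LOC_Os07g10770) had 80.2 and 69.5 CPM against 237 and 178 CPM (log2 fold change -1.47, edgeR's adjusted p = 0.00283). CESA3 (LOC_Os07g24190), with 72.5 and 69.0 CPM against 189 and 157 CPM, lost its call with either outgrowth library left out (edgeR's adjusted p up to 0.0656), and 3 wall genes were called lower in each of those fits. CESA4 (LOC_Os01g54620), of the secondary wall, had 6.19 and 5.06 CPM against 21.9 and 7.42 CPM and was not called (edgeR's adjusted p = 0.144). Among the lignin genes, COMT1 (LOC_Os08g06100), a methyltransferase, had 3.73 and 1.51 CPM at outgrowth and 94.3 and 64.4 CPM in control. Its log2 fold change was -4.90 ± 0.52 (SE, edgeR's adjusted p = 0.00128), and -5.70 without outgrowth replicate 1. CAD2 (LOC_Os02g09490), an alcohol dehydrogenase of the same pathway, had 18.1 and 16.9 CPM against 49.8 and 40.3 CPM (log2 fold change -1.37 ± 0.32, SE, edgeR's adjusted p = 0.0188), a call lost with either outgrowth library left out (edgeR's adjusted p up to 0.195).

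Aquaporins, the water channels of plasma membrane (PIP) and vacuole (TIP), gave 8 lower and 0 higher of 9 tested, and their median log2 fold change was -3.98. Of these, at least PIP2;2 and TIP2;1 passed the filter only through the control libraries and could not have come out higher. PIP2;6 (LOC_Os04g16450) had 46.5 and 41.4 CPM at outgrowth and 1049.5 and 1249.9 CPM in control, a log2 fold change of -4.71 ± 0.20 (SE, edgeR's adjusted p = 4.6e-05). The most abundant, PIP1;1 (LOC_Os02g44630), had 102 and 113 CPM against 1530.2 and 1658 CPM (log2 fold change -3.89, edgeR's adjusted p = 8.69e-05). PIP1;2 (LOC_Os04g47220) had 3.02 and 1.33 CPM against 51.2 and 53.5 CPM, a log2 fold change of -4.58 ± 0.49 (SE, edgeR's adjusted p = 0.000757) that was -5.28 without outgrowth replicate 1. PIP2;2 (LOC_Os02g41860) had no read at outgrowth and 14.1 and 3.33 CPM in control, at least 69.4-fold lower (edgeR's adjusted p = 0.0146). TIP2;1 (LOC_Os02g44080) had a single read at outgrowth and 4.28 and 7.26 CPM in control, a pooled ratio of 156 (95% counting interval from 27.7 to 6177). Calls for PIP2;2 and TIP2;1 were lost with either outgrowth library left out (edgeR's adjusted p up to 0.134 and 0.145), and that for PIP2;2 also with DESeq2. In all, 4 aquaporins were called lower without outgrowth replicate 1 and 5 without replicate 2. With either control library left out the count was 6, PIP2;2 and TIP2;1 then failing the filter.

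Among 10 genes of mineral nutrient transport and iron uptake tested, 3 were higher and 3 lower. PT8 (LOC_Os10g30790), a phosphate transporter of roots, had 33.5 and 29.0 CPM at outgrowth and 2.89 and 0.153 CPM in control, a log2 fold change of 4.62 ± 0.99 (SE, edgeR's adjusted p = 0.0132). It was 7.58 without control replicate 1, against 3.47 without control replicate 2, and the call was lost with either outgrowth library left out (edgeR's adjusted p up to 0.0581). HAK1 (LOC_Os04g32920) and IRT1 (LOC_Os03g46470), carriers for potassium and iron, had no read in control and 3.96 and 2.18 CPM on average at outgrowth. They were at least 45.9-fold and 25.3-fold higher (edgeR's adjusted p = 0.0176 and 0.0307). With either outgrowth library left out 0 genes of this list were called higher. NAS1 (LOC_Os03g19427) and NAS2 (LOC_Os03g19420), neighbouring genes for the metal chelator nicotianamine between which reads may be divided, were lost. NAS1 had no read at outgrowth and 17 and 10.8 CPM in control, at least 111-fold lower (edgeR's adjusted p = 0.00406). NAS2 had 4 reads at outgrowth and 23.4 and 13.3 CPM in control, and its fitted log2 fold change of -6.68 (edgeR's adjusted p = 0.00324) was -6.05 without outgrowth replicate 1 and -7.70 without replicate 2. The outgrowth libraries thus held next to none of either transcript. HMA2 (LOC_Os06g48720), which loads zinc into the vasculature, had 0.476 and 0.976 CPM against 27.3 and 8.87 CPM (log2 fold change -4.62 ± 0.88, SE, edgeR's adjusted p = 0.00806), a call lost with either outgrowth library left out (edgeR's adjusted p up to 0.0876). NAAT1 (LOC_Os02g20360), an enzyme of phytosiderophore synthesis, had 4.76 and 59.6 CPM in outgrowth replicates 1 and 2, a spread that left it uncalled against 106 and 61.4 CPM in control. With either control library left out, NAS1, NAS2 and HMA2 no longer passed the filter and were not tested. Having passed only through control, these 3 could not have come out higher.

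MADS-box genes gave 4 lower and 0 higher of 8 tested. MADS26 (LOC_Os08g02070), a repressor of stress responses, had 3.81 and 4.97 CPM at outgrowth and 578 and 529 CPM in control, a log2 fold change of -6.98 ± 0.49 (SE, edgeR's adjusted p = 0.000162). Initiation had 13.8 and 34.6 CPM, and from there MADS26 fell by 2.46 on the log2 scale (edgeR's adjusted p = 0.0287). MADS22 (LOC_Os02g52340) had 46.9 and 45.0 CPM against 130.1 and 103 CPM (log2 fold change -1.34 ± 0.20, SE, edgeR's adjusted p = 0.00294) and from initiation it fell by 1.1 (edgeR's adjusted p = 0.0317). MADS47 and MADS56 had log2 fold changes of -1.20 and -1.55, and both calls were lost with either outgrowth library left out (edgeR's adjusted p up to 0.103 and 0.127).

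Stress genes included the most abundant gene named here. MT2B (LOC_Os05g02070), a metallothionein that binds metals and scavenges oxygen radicals, had 908 and 499.8 CPM at outgrowth and 13955 and 19173 CPM in control. Its log2 fold change was -4.56 ± 0.48 (SE, edgeR's adjusted p = 0.000724), and no library crossed between the groups. The catalases moved in opposite directions. CATA (LOC_Os02g02400) had 27.5 and 36.5 CPM at outgrowth and 1.27 and 4.43 CPM in control (log2 fold change 3.43 ± 0.99, SE, edgeR's adjusted p = 0.0384), with 0.815 and 0 CPM at initiation. CATB (LOC_Os06g51150) had 173 and 156 CPM against 277 and 259 CPM (log2 fold change -0.70 ± 0.17, SE, edgeR's adjusted p = 0.0226). Both calls were lost with either outgrowth library left out (edgeR's adjusted p up to 0.229 and 0.222), and that of CATA also without control replicate 1, where its log2 fold change was 2.82. Without control replicate 2 that fold change was 4.68. Each catalase was thus separated between the groups in these libraries without a call that outlasts the loss of an outgrowth library. MT1A (LOC_Os11g47809), another metallothionein, had 11.2 and 4.35 CPM against 0 and 0.344 CPM (edgeR's adjusted p = 0.0215), and its fitted log2 fold change of 5.14 was between 4.39 and 9.61 with 1 library left out, uncalled with either outgrowth library left out. NPR1 (LOC_Os01g09800), the co-activator of salicylic acid defence, had 28.5 and 24.4 CPM against 8.67 and 8.41 CPM (log2 fold change 1.63 ± 0.33, SE, edgeR's adjusted p = 0.01), also uncalled with either outgrowth library left out (edgeR's adjusted p up to 0.11).

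Lists near the background were those of sugar and starch, with 1 higher and 1 lower of 12 tested, and of the circadian clock and phytochromes, with 0 higher and 1 lower of 9. SUS1 (LOC_Os03g28330), a sucrose synthase, had 831 and 976 CPM at outgrowth and 1718 and 1409 CPM in control (log2 fold change -0.79 ± 0.19, SE, edgeR's adjusted p = 0.0186). SUS2 (LOC_Os06g09450) had 1048 and 979 CPM against 1155 and 1188 CPM and was not called (edgeR's adjusted p = 0.391). LHY (LOC_Os08g06110), a morning gene of the clock, had 29.0 and 25.7 CPM against 64.8 and 65.6 CPM (log2 fold change -1.25 ± 0.25, SE, edgeR's adjusted p = 0.00966). The calls of SUS1 and LHY were lost with either outgrowth library left out (edgeR's adjusted p up to 0.149 and 0.135), and that of SUS1 also without control replicate 1.

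Further members of these lists did not pass the test against control and are given as log2 fold changes. The wall gene CESA2 had 0.34 and 4CL3, an enzyme at the entry to lignin synthesis, -2.68. The phosphate transporter PT1 had -0.42, the aquaporin PIP2;4 -2.94 and the starch branching enzyme SBE1 -0.24. The clock gene GI had -0.43, the phytochrome PHYA 0.41, MADS55 0.31, MADS57 -1.17 and the heat shock protein HSP101 1.02.

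**Figure D5:**
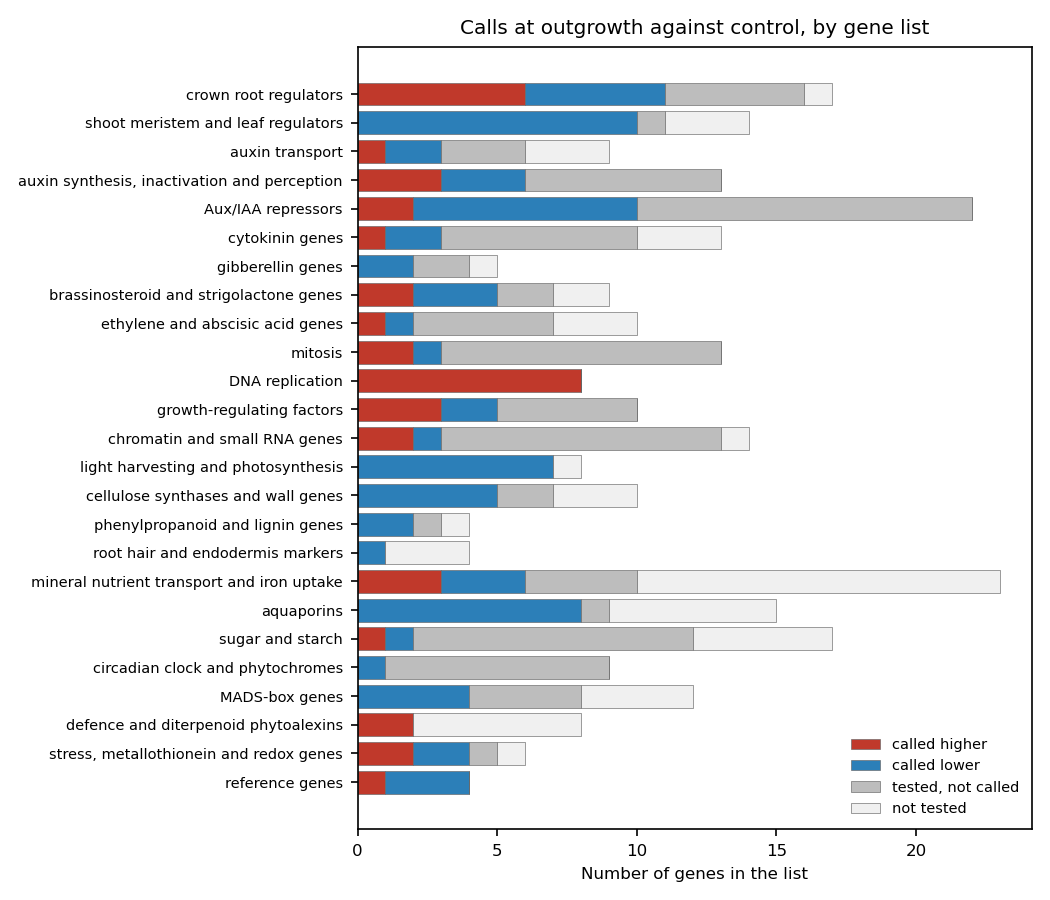
Number of named genes in each of the 25 lists that were called higher or lower at outgrowth than in control, tested but not called, or not tested for want of reads. DNA replication has 8 of 8 genes higher, and the calls in the light harvesting, shoot meristem, aquaporin and wall lists are all lower.

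Between the stages, 26 of the 217 list members tested (12.0%) were called, 5 higher and 21 lower at outgrowth than at initiation. Over all 18830 genes tested, 580 (3.08%) were called, here not split by direction. The lists were chosen with earlier results of these data known, so their higher share is not a result about the members. Among these 26, those not called against control included cyclins and Aux/IAA genes. The mitotic cyclins CYCB1;1 (LOC_Os01g59120) and CYCB2;2 had log2 fold changes of -1.58 and -1.91 at outgrowth over initiation, and the Aux/IAA genes IAA6 and IAA12 of -1.83 and -2.78. GRF7 (LOC_Os12g29980) was higher at outgrowth, with 57.9 and 56.3 CPM against 25.6 and 22.3 CPM at initiation (log2 fold change 1.25, edgeR's adjusted p = 0.0278). The vacuolar water channel TIP2;2 (LOC_Os06g22960) had 61.9 and 64.4 CPM at outgrowth against 7.52 and 2.3 CPM at initiation, an increase of 3.67 on the log2 scale (edgeR's adjusted p = 0.0135), and 289 and 439 CPM in control. The outgrowth files are laid out differently from the other files. A separate run of processing therefore cannot be told apart from the stage, nor from the difference between outgrowth and control.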

How the data were processed

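RNA of captured stem base tissue was isolated with the PicoPure kit and made into libraries with a SMARTer low-input kit, per the labels' protocols. The aligner was STAR, per the submitters' processing notes. Its version, the counting tool, the build and the strand setting were not given in the sources used here. The deposited column is headed FPKM but holds whole-number counts of reads per gene, as deposited by the authors, and a gene missing from a file was given 0.

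Names were attached by locus as described at the outset, within 0.12 of the relative place on a chromosome in the RefSeq table. None of the 24775 identifiers matched that table directly. The lists, their members and the naming rule were chosen with earlier results of these data known. By the rule, all crown root regulators are named, and in each other list up to 4 called members per direction with the largest fold change and at least 5 CPM in the higher group, with up to 2 uncalled ones. Other members with values, and the sums over BBM1 to BBM4 with SCR2 and over all crown root regulators, were added after the values had been seen.

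Initiation replicates 1 and 3 differed by 0.402 times the binomial counting noise, less than sampling allows, and were averaged and counted as 1 sample. All 6 resulting libraries were fitted together, with a mean for each of 3 groups (R 4.3.3, edgeR 4.0.16 with glmQLFit, glmQLFTest and TMM scaling) over genes reaching 1 CPM in 2 or more libraries. It had 3 residual and 4.72 prior degrees of freedom. The p-values are two-sided, were adjusted by Benjamini-Hochberg over all 18830 genes and judged at 0.05. CPM values use TMM-scaled totals, and errors of log2 fold changes are standard errors. The limit of detection, 3 counts over a group, was 0.0862 CPM in control and 0.126 CPM at outgrowth. Such bounds and the 95% intervals, exact conditional binomial, cover counting error only, and low values are more precise in the deeper libraries. Alternatives were other scalings, DESeq2 1.42.0, limma 3.58.1 on log2(CPM + 1), other filters, fewer libraries and a replicate block. The test was also tried on simulated counts, but the outcome is not given here and adds no support to the calls. The labels tie no library to a plant, so the spread behind the p-values is that between libraries and may be technical. No promoter or protein sequences were used here.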

Additional observations from a re-analysis of the deposited data

Results flagged for a closer look

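Of the genes named by rule, 17 had an effect against control that differed between outgrowth and initiation, by edgeR's test of the difference between the stages at an adjusted p below 0.05. Over all 18830 genes tested, 580 (3.08%) were called between the stages, and the lists were chosen with earlier results known. As both stages share the control libraries, the difference is that of outgrowth minus initiation, given here on the log2 scale. Among the crown root genes it was -2.57 for SHR1, -1.98 for SHR2 and -1.16 for SCR2, which was nevertheless above control at both stages. In the shoot meristem list it was -2.36 for OSH1 and -1.66 for HB4. Auxin genes gave -2.70 for PIN1c, -4.04 for GH3-8, -1.66 for ARF12 and -1.55 for IAA7. The argonaute PNH1 had -1.76, the aquaporin PIP2;6 -1.42, MADS22 -1.1 and MADS26 -2.46.

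Among these, higher at outgrowth than at initiation were CAD2, with a difference of 3.88, CATA, with 6.23, and GRF7, with 1.25, which was not called against control. The aquaporin TIP2;2, not named by rule, was higher as well, by 3.67. COMT1, without a read at initiation, was at outgrowth at least 26.4-fold above the limit of 3 counts there, while both lignin genes were highest in control. The outgrowth files differ in layout from the others. A separate run of processing cannot be told apart from the stage, nor from the difference between outgrowth and control.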

How the results depend on the processing

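Counts called higher and lower at outgrowth were 2413 and 2563. Over the alternatives that kept every outgrowth and control library they were 2088 to 3110 higher and 2292 to 3095 lower. With 1 library left out they were 736 to 4492 and 787 to 3098, the low values without an outgrowth library and the high ones without control replicate 2. In that fit 59.2% of calls were higher, against 48.5%, and the median log2 fold change of all genes was 0.136 instead of -0.02. All 4976 calls that an alternative could test kept their direction. Of 88 called named genes, 49 held in each of 15 alternatives that tested them, 34 were lost without outgrowth replicate 1 and 36 without replicate 2. With a replicate block the counts were 2200 and 2426. Deviations of same-numbered libraries had a correlation across genes of -0.03. That value alone cannot show whether same-numbered libraries share plants, so pairing remains unknown. Both uncalled, the log2 fold change of CRL1 ran from -2.35 to 4.96 with 1 library left out and the log2 fold change of RR1 from -0.56 to 0.70, changing sign. For RR1 it was 0.0143 with upper quartile scaling and 0.00448 with the replicate block. The causes were not tested. At 8351775 counts, control replicate 1 sets the limit for low genes. Apart from depth, 10 called named genes passed the filter through the control libraries alone and could not be tested with either left out.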
